A study of Homo sapiens with 7 samples.

Results

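H3K4me1, the single methyl mark on lysine 4 of histone H3, was compared gene by gene between a pair of ChIP-seq interval lists from SW1990, an established human pancreatic cancer line. The NC list was made from negative control cells, and the KMT2D-KD list from cells in which KMT2D, a histone methyltransferase, was knocked down. An interval means here a stretch enriched over input DNA in the deposited list, of which NC had 64843 and KMT2D-KD 92135. The members were all 20033 protein-coding genes of GENCODE release 44 on chromosomes 1 to 22, X and Y of hg38. Each gene stood for a locus, the gene body with 20 kb on either side. The series held 7 samples in all, with 1 H3K4me1 library a side, so there was no replicate and no test. The paper describes stable KMT2D knockdown lines and also lists siRNAs against KMT2D, and the sample titles do not say which were used here. The labels do not say whether either culture was a single clone, and how much KMT2D was left after knockdown was not analysed here.

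H3K4me1 marks enhancers and the flanks of promoters, and the enzymes KMT2C and KMT2D place much of it at enhancers of differentiated cells. KDM1A (LSD1) with its partner RCOR1 removes mono- and dimethylation from the same residue. An enhancer that carries the mark may be active, poised or inactive, so the mark on its own does not give the expression of a gene.

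As examples of called sequence that held a motif match, 200 bases around a summit are shown for 3 of the leading losing loci. They were read from the forward strand of hg38. Each is the NC interval with the highest q-value score that overlapped none in KMT2D-KD, outside annotated exons. Capitals mark motif letters on either strand: AGATAA for GATA factors, GGAATG for TEAD factors and TGANTCA for AP-1.
GYS2, chr12:21546768-21546967: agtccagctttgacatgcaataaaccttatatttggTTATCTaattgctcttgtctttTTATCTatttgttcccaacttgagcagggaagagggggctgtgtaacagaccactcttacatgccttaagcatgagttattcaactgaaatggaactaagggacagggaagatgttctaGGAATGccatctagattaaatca
CLEC19A, chr16:19283758-19283957: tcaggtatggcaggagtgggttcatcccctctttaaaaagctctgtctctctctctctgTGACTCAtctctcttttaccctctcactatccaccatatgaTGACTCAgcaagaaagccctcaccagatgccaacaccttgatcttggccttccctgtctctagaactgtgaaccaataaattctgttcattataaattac
GPR158, chr10:25305401-25305600: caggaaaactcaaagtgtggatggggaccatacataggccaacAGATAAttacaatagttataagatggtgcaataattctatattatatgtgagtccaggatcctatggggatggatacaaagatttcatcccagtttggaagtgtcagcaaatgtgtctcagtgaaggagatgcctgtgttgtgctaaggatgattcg
The GYS2 sequence (intronic) held 2 GATA and 1 TEAD match, the CLEC19A sequence (1.9 kb upstream of the gene, outside protein-coding genes) 2 AP-1 matches and the GPR158 sequence (intronic) 1 GATA match. The like sequence downstream of NNT held none of the 7 motifs searched. Nor did the KMT2D-KD sequences read in the same way for the leading gaining loci PALLD, CRYZL1, DNAJB6 and CEACAM16. The intervals shown for GYS2, CLEC19A and GPR158 were weak, with −log10 q-values of 3.42, 4.15 and 4.16. Motif shares over all summits are given below. A match is a description of the letters and does not show that a factor bound there.

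The KMT2D-KD list covered more of the genome than the NC list, 49.7 Mb against 32.3 Mb, or 1.54 times as much. The lists shared 20.4 Mb, which was 63.3% of the NC bases and 41.1% of the KMT2D-KD bases. The lowest background that fold enrichment and p-value imply, divided by the width of the narrowest interval, was 9.89 fragments per kb in NC and 9.29 in KMT2D-KD, a rough measure of the scaled depth of each library. Strong intervals, with a −log10 q-value of at least 10, numbered 1644 (2.54%) in NC and 6660 (7.23%) in KMT2D-KD. Because of this difference in covered bases, each locus was expressed as a share of its own list, in ppm, the covered bases of the locus per Mb of all covered bases of the list. The value of a locus is log2 of the KMT2D-KD share over the NC share after 10 ppm was added to each. The list totals differed by 0.62 on the log2 scale, so values on bases without this scaling are higher, and they are given below where a list median changes sign. All intervals given here on counts or shares cover counting error only, since reads are not independent molecules.

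Of the 20033 loci, 4555 held no interval in either list, 12088 held intervals in both, 574 in NC only and 2816 in KMT2D-KD only. A share of at least 50 ppm in one list was required for a call, and 6316 loci reached it. Among these, 593 gained H3K4me1 share (log2 value of at least 1, 9.39% of the eligible loci) and 171 lost it (log2 value of at most −1, 2.71%). Neighbouring genes share intervals, and after merging overlapping windows the gaining loci formed 424 stretches and the losing loci 130. The middle of the distribution lay near no difference, with a median log2 value of 0.07 and quartiles of −0.27 and 0.50. All 171 losing loci had fewer covered bases in KMT2D-KD, as the call requires at this ratio of list totals. By comparison, 2165 of the 2818 eligible loci with a lower share in KMT2D-KD had more covered bases there, so a lower share did not by itself mean less marked sequence. A 95% interval on the ratio of the shares of intervals, an exact binomial (Clopper-Pearson) one, lay wholly above 0 on the log2 scale for 59 of the gaining loci and wholly below 0 for 12 of the losing loci. For the remaining called loci a difference in the number of intervals was not detectable at these counts. The calls rest on the bases of the same intervals, so these limits are no separate support for them. No allowance was made for the number of loci. When intervals with a −log10 q-value under 5 were dropped, 272 of the 593 gaining and 68 of the 171 losing loci kept their call.

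**Figure D1:**
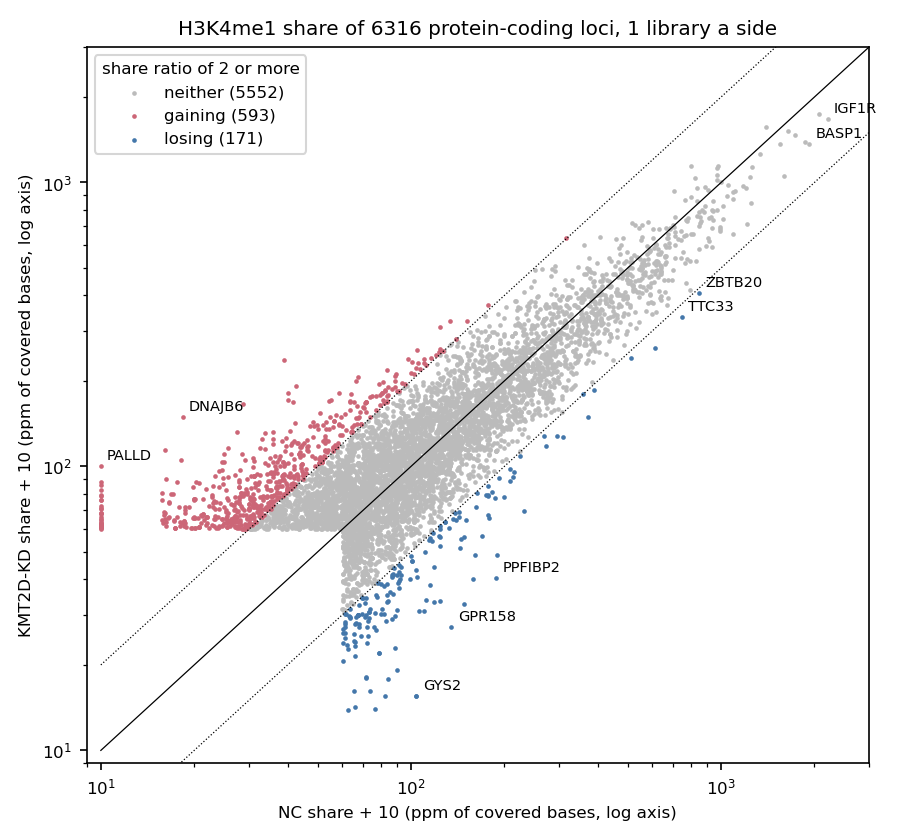
H3K4me1 share of each of the 6316 eligible loci in NC (x axis) and KMT2D-KD (y axis), in ppm of covered bases plus 10 on log axes. The solid line marks equal shares, the dotted lines a ratio of 2 either way, and gaining loci are red and losing loci blue. The 593 gaining loci lie mostly at low NC shares and the 171 losing loci at low to middle NC shares, while the loci with most H3K4me1, such as IGF1R and BASP1, sit near the line.

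The median gaining locus went from 734 covered bases in 2 intervals in NC to 3704 bases in 8 intervals in KMT2D-KD, and over all gaining loci 14.6% of the KMT2D-KD bases were covered in NC. The median losing locus went from 2547 bases in 6 intervals to 1253 bases in 4 intervals, and 35.6% of the NC bases of losing loci were still covered in KMT2D-KD. Of the 593 gaining loci, 510 were in the lowest quintile of eligible loci by NC share, from 0 to 49.9 ppm. That follows from the minimum of 50 ppm, since such loci were eligible only through KMT2D-KD. The body of the gene held 54.8% of the KMT2D-KD bases of gaining loci and 62.2% of the NC bases of losing loci, against 64.1% and 66.1% over all eligible loci.

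PALLD, which encodes the actin-associated scaffold palladin, headed the gaining loci (chr4:168497052-168928457). It held 0 covered bases in NC and 4496 bases in 15 intervals in KMT2D-KD, all within the gene body. Taking 3 intervals as the limit a count of 0 allows, its share of intervals was at least 3.52-fold higher in KMT2D-KD. The exact 95% lower limit of the log2 ratio, which also allows for error in the 15 intervals, was 1.34. DNAJB6, a co-chaperone of HSP70, held 270 bases in 1 interval in NC and 6930 bases in 15 intervals in KMT2D-KD, a log2 value of 3.02. The log2 ratio of its interval shares was 3.40, with a 95% interval of 0.70 to 8.80. DNAJB6 kept its call in all 19 alternatives tried and PALLD in 17, since at a minimum of 100 ppm, or without intervals of a −log10 q-value under 5, PALLD no longer reached the minimum share.

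**Figure D2:**
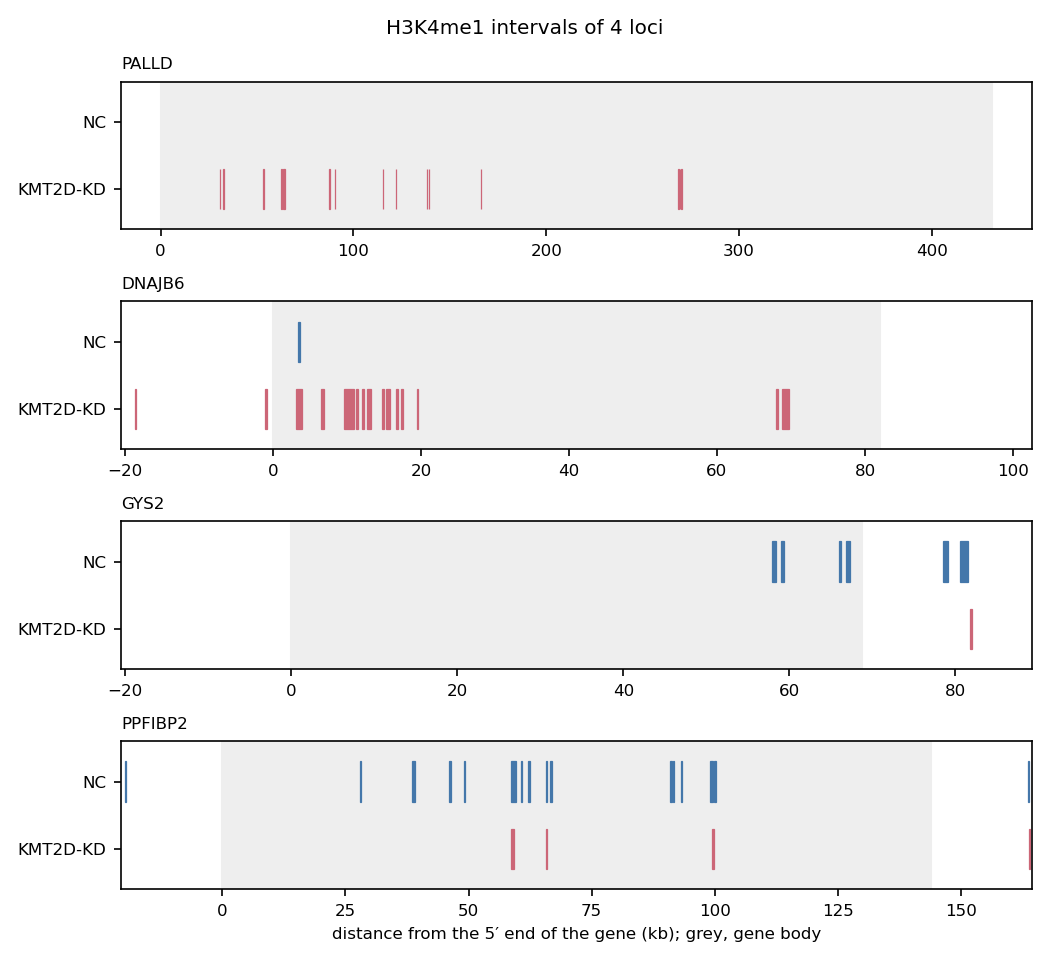
H3K4me1 intervals of PALLD, DNAJB6, GYS2 and PPFIBP2 in NC (blue) and KMT2D-KD (red), by distance from the 5′ end of each gene in kb, with the gene body in grey. PALLD shows 15 intervals in KMT2D-KD against 0 in NC, while GYS2 shows 1 against 6.

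The other 8 leaders on the log2 scale were all at 0 in NC. CRYZL1, which encodes a quinone oxidoreductase-like protein, had 3769 bases in 10 KMT2D-KD intervals, and its neighbour ITSN1, an endocytic scaffold, also gained, from 2570 to 10018 bases over a longer window. ZNF521, a zinc finger protein known to bind EBF family factors, had 3303 bases in 11 intervals. MAPK10 (JNK3), a stress-activated kinase, had 3121 bases in 10 intervals. GIT2, a GTPase-activating protein for ARF, had 3302 bases in 7 intervals. Shares of intervals at these 4 loci were at least 2.35-fold, 2.58-fold, 2.35-fold and 1.64-fold higher in KMT2D-KD, in that order, by the same limit of 3 intervals. The exact lower limits of the log2 ratio were 0.66 for CRYZL1, 0.82 for ZNF521, 0.66 for MAPK10 and 0.02 for GIT2, the last barely above no difference. CEACAM16, an inner ear adhesion protein, had 3449 bases in 11 intervals and PCNX3 3037 bases in 10 intervals, at least 2.58-fold and 2.35-fold higher, with exact lower limits of 0.82 and 0.66 on the log2 scale. All intervals of CRYZL1, CEACAM16 and PCNX3 lay in the flanks, and over the gene body alone each had a value of 0.00. The unnamed gene ENSG00000249240, whose window also holds PLEKHO2, had 3879 bases in 9 intervals, at least 2.11-fold higher, with an exact lower limit of 0.47 on the log2 scale. SFPQ, a splicing and paraspeckle protein, had 3414 bases in only 3 wide intervals, so no fold is given for it.

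GYS2, the liver form of glycogen synthase, headed the losing loci (chr12:21536107-21604847). It held 3036 bases in 6 intervals in NC and 275 bases in 1 interval in KMT2D-KD, a log2 value of −2.74. None of the NC bases was covered in KMT2D-KD. The log2 ratio of interval shares was −3.09, with a 95% interval of −8.62 to −0.05. These were weak intervals, with −log10 q-values of at most 3.42, so without intervals under 5 the locus held none in either list and its value was 0.00. The peptide hormone gene SPX shares this stretch with the same values, and LDHB next to it went from 5405 to 3461 bases, a log2 value of −1.16.

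PPFIBP2, a scaffold protein of the liprin family, had the most intervals among the 10 lowest loci. It went from 5754 bases in 16 intervals to 1514 bases in 4 intervals, a log2 value of −2.22, and the log2 ratio of its interval shares was −2.51 (95% interval −4.55 to −0.87). GPR158, an orphan receptor, went from 4038 bases in 11 intervals to 851 bases in 2, a log2 value of −2.32 with an interval of −6.18 to −0.77 on the interval share ratio. This value turned to 1.55 when intervals with a −log10 q-value under 5 were dropped. ENSG00000285542, whose window is shared with the phosphatase gene PPM1B, went from 7 intervals to 1, and its interval of −8.81 to −0.35 also lay below 0.

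For the remaining loci among the 10 lowest the 95% interval of the interval ratio crossed 0. NNT, the mitochondrial transhydrogenase that supplies NADPH, went from 2341 bases in 5 intervals to 278 bases in 1. FOXN3, a forkhead repressor, went from 2404 bases in 7 intervals to 388 bases in 2. CLEC19A went from 2152 to 197 bases, FIGN, a microtubule-severing ATPase, from 1704 to 192 bases and the olfactory receptor OR52E8 from 1808 to 207 bases. The CLEC19A value came from the flanks, and over the gene body alone it was 0.48. All OR52E8 bases also lay in the flanks, and its call was lost over the gene body alone and with flanks of 5 kb. Its window overlaps those of TRIM5, OR52N2 and OR52E6, which were also called as losing. The unnamed gene ENSG00000285839, next to RAB3B, went from 2590 to 455 bases.

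**Figure D3:**
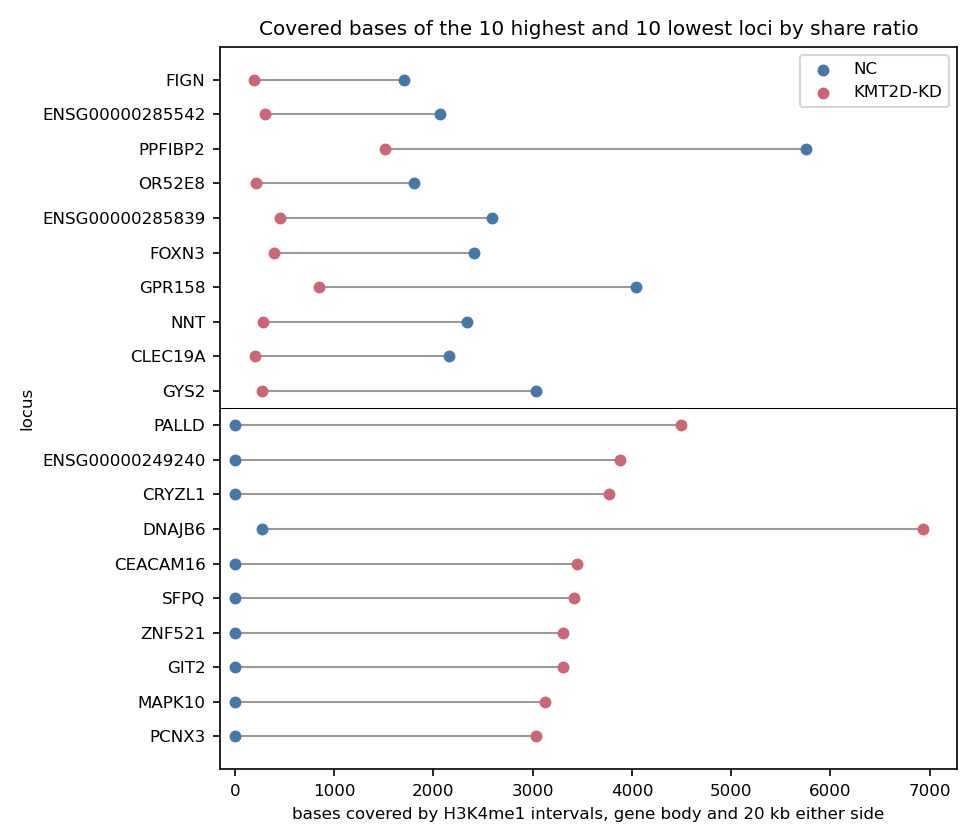
Bases covered by H3K4me1 intervals in NC (blue) and KMT2D-KD (red) for the 10 loci with the highest and the 10 with the lowest log2 value, joined by a line. Among the 10 highest, 9 held 0 bases in NC, and among the 10 lowest all kept at least 192 bases in KMT2D-KD.

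Ranking by the difference in ppm instead drew out loci with large amounts of H3K4me1, and here share and bases parted. IGF1R, the receptor for insulin-like growth factor, covered 70942 bases in NC and 82694 in KMT2D-KD, while its share went from 2198 to 1663 ppm. BASP1, a membrane protein of the cortical cytoskeleton, covered 61664 and 67481 bases with shares of 1911 and 1357 ppm. TEAD1, the DNA-binding partner of YAP, and TRIO, a guanine nucleotide exchange factor, showed the same pattern, from 59842 to 68736 and from 51256 to 52067 bases. These 4 loci lost share without losing bases.

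Most other loci at this end lost both. ZBTB20, a transcriptional repressor, went from 27128 to 19750 bases and from 51 to 32 intervals, a log2 value of −1.06, with an interval of −1.86 to −0.51 on the interval share ratio. LGR4, a receptor for R-spondins that raises Wnt signalling, went from 38900 to 35097 bases. ARID5B, a DNA-binding cofactor of the demethylase PHF2, went from 34920 to 32309 bases and BICC1, an RNA-binding protein, from 25300 to 20269. TTC33 went from 23766 to 16214 bases, a log2 value of −1.15, on a stretch shared with PTGER4, a prostaglandin E2 receptor, and PRKAA1, a catalytic subunit of AMPK. ANK3, the node and axon ankyrin, lost share only, with 40033 and 41668 bases.

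At the other end, LIMCH1, an activator of non-muscle myosin, went from 25432 to 56399 bases and from 788 to 1135 ppm, the highest difference of all. SYN3 went from 9885 to 31098 bases, a log2 value of 1.01, and the 95% interval of its interval ratio, 0.12 to 1.49, lay above 0. ROR2, a Wnt5a receptor, went from 8850 to 24096 bases and FNDC3B from 22463 to 45721. ANKRD11, TANC1, DHX8 and CACNA2D3 had log2 values of 0.66, 0.96, 0.90 and 0.74. DOCK5, a RAC exchange factor, went from 26348 to 50912 bases with a log2 value of 0.32. Of the loci named at this end, SYN3 alone was called as gaining, and for each of the others the 95% interval of the interval ratio crossed 0.

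Gaining and losing loci were not spread evenly over the genome. In bins of 5 Mb, 100 of 631 bins held a losing locus, 221 a gaining locus and 30 both, and the 10 bins with most losing loci held 53 of them (31.0%). The densest was the bin from 40 to 45 Mb of chromosome 5 (chr5:40000001-45000000), where 13 of 15 eligible loci lost share and 0 gained. The share of the whole bin, genes or not, went from 4452 ppm in NC to 1947 ppm in KMT2D-KD. Its losing loci include SELENOP, the plasma selenium carrier (4444 to 1132 bases), CCL28, an epithelial chemokine (7142 to 2957), HMGCS1, which makes HMG-CoA for cholesterol synthesis (5163 to 2343), FGF10, a ligand of FGFR2b (3225 to 1043), and NNT. FGF10 shows how the unit matters, since its NC bases lay in 1 wide interval and its KMT2D-KD bases in 3 narrow ones.

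Chromosome 14 held another such stretch. Over 85 to 90 Mb the bin went from 668 to 185 ppm with FOXN3 and TTC8 losing, and over 90 to 95 Mb from 1035 to 514 ppm with RIN3, RPS6KA5 and SLC24A4 losing. Here RIN3, a RAB5 exchange factor, went from 3514 to 1154 bases and SLC24A4, a sodium, potassium and calcium exchanger, from 4792 to 1490.

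The opposite was seen at the end of the long arm of chromosome 7. In the last bin, beyond 155 Mb, all 8 eligible loci gained, and its share went from 413 to 1438 ppm. They include DNAJB6, INSIG1, a sensor that restrains cholesterol synthesis (784 to 3384 bases), LMBR1, whose intron holds a limb enhancer of SHH (1894 to 7240), and VIPR2, a receptor for vasoactive intestinal peptide (1360 to 6460). In the bin before it 6 of 9 gained, among them RHEB, the GTPase that activates mTORC1 (1024 to 7834 bases), and PRKAG2, a regulatory subunit of AMPK (3048 to 12305). The first 5 Mb of chromosome 19 went from 731 to 1755 ppm with 6 of 15 eligible loci gaining, including the elongation factor EEF2 (265 to 2641 bases) and NFIC, a nuclear factor I protein (2216 to 9184). Regions were picked after their values were seen. The condition of the input cells is not given, so a regional shift in H3K4me1 and a regional difference in copy number between cells cannot be told apart here.

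Gaining loci were richer in G and C. By quintiles of eligible loci from the lowest to the highest GC content, 4.67%, 7.44%, 6.65%, 8.95% and 19.2% gained and 6.65%, 3.09%, 2.53%, 1.19% and 0.0792% lost. The median log2 value went from −0.22 to 0.46 over these quintiles. By chromosome, the highest medians were on 21 (0.66, 34.3% of eligible loci gaining), 19 (0.61, 26.3%) and X (0.45, 15.1%), followed by 22 and 18 at 0.42, and the lowest on 5 (−0.15), 7 (−0.11) and 10 (−0.08). The intervals themselves differed in the same way, with a median GC content of 43.7% in NC and 45.6% in KMT2D-KD. The part of GC content in the calls was not tested.

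**Figure D4:**
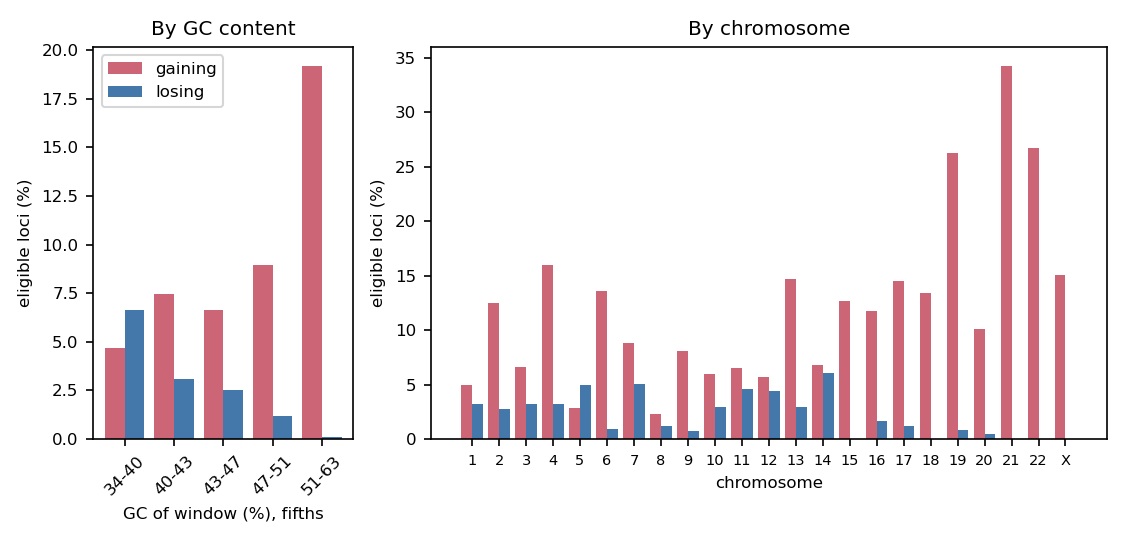
Percent of eligible loci called gaining (red) or losing (blue), by quintiles of the GC content of the locus window (left) and by chromosome (right). Gaining loci go from 4.67% to 19.2% from the lowest to the highest GC quintile while losing loci go from 6.65% to 0.0792%.

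Words of 12 bases that also occur, on either strand, in the 7SL RNA gene RN7SL1, from which the Alu repeats derive, were more frequent under KMT2D-KD summits. Taking a 200-base summit window with at least 3 such words, 10.6% of KMT2D-KD intervals and 7.68% of NC intervals qualified, against 7.11% of 58737 windows on a regular grid over the genome. Intervals of KMT2D-KD that overlapped none in NC reached 11.8% (95% interval 11.5 to 12.1) and NC intervals that overlapped none in KMT2D-KD 6.70% (6.35 to 7.06). In gaining loci the figure was 14.2% for KMT2D-KD intervals (13.2 to 15.2), while 11.1% of windows placed every 2 kb along those loci qualified. In losing loci 5.51% of NC intervals qualified (4.21 to 7.07), beside 6.27% of windows along them. Of the sequences read for leading loci, those of PALLD, CEACAM16 and DNAJB6 held 9, 6 and 2 such words. Those of CRYZL1, GYS2, CLEC19A, NNT and GPR158 held 0. How reads from repeats were placed is not given in the sources used here. Without any interval with at least 3 such words, 465 of the 593 gaining loci and 144 of the 171 losing loci kept their call. CEACAM16, among the 10 highest loci, lost its call. The part of such sequence in the result was not tested further.

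Short motifs were counted under the same summits. AGATAA, the GATA motif, was in 15.5% of NC summits of losing loci (95% interval 13.4 to 17.8) and in 9.71% of KMT2D-KD summits of gaining loci (8.86 to 10.6), beside 13.0% and 11.5% of all summits of the lists. KMT2D-KD summits of the losing loci held it in 10.2%, and with 100-base windows NC summits of losing loci held it in 7.32% (5.82 to 9.06), beside 6.30% of all NC summits, which lies within that interval. GGGNGGGG, the KLF and SP motif, was in 3.80% (2.73 to 5.14) and 6.45% (5.75 to 7.20) of the same sets, beside 4.48% and 5.29%. CCCNNGGG, the core of the EBF motif, was in 2.47% and 5.30%, beside 3.74% and 4.33%. TGANTCA, the AP-1 motif, was in 7.13% and 7.22%, beside 8.06% and 7.78% of all summits. TGTTTAC for FOXA was in 3.42% and 2.49%, beside 3.16% and 2.74%. GGAATG for TEAD was in 14.5% and 11.3%, beside 12.4% and 12.1%, and in 10.6% of KMT2D-KD summits of losing loci. ACCGGAAG for ETS factors was in 0 of 1052 losing-locus summits and in 5 of 4543 gaining-locus summits. The 200-base windows of the gaining set had a median GC content of 48.5% and those of the losing set 41.5%.

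Genes were grouped by function or family into 73 lists, and members are counted among eligible loci, beside 9.39% gaining and 2.71% losing over all. Loci of ductal and simple epithelium genes carried H3K4me1 in both lists. Of 14 such markers, 11 were eligible, 1 gained and 0 lost, with a median log2 value of 0.02. KRT7 covered 17481 bases in NC and 23891 in KMT2D-KD, KRT8 16097 and 23262, and GRHL2, an epithelial transcription factor, 12539 and 14156. The share of each of these was nevertheless lower in KMT2D-KD. Of the 11 eligible markers, 6 had a log2 value above 0 and 5 below. CDH1 (E-cadherin) was the gaining one, from 2761 to 9206 bases, while FOXA2 held 0 bases in either list. Markers of hepatocytes, muscle and endocrine cells had no eligible member, and the endocrine genes INS and NEUROD1 and the hepatocyte gene ALB were at 0 bases in both lists. Acinar markers had 2 eligible members, blood markers 1 and fibroblast markers 1, with 0 gaining and 0 losing. Among neuron markers only SNAP25, a synaptic vesicle fusion protein, was eligible, and it went from 195 to 2870 bases.

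Enhancer cofactors and chromatin remodellers had a median of 0.55, beside 0.07 over all eligible loci, with 15 of 18 eligible members above 0, 3 gaining and 0 losing. The gaining ones were ARID1B, a subunit of the SWI/SNF remodeller (677 to 4839 bases), SMARCA4, its ATPase (1322 to 7158), and the bromodomain protein BRD2 (549 to 2831). After subtracting the median of loci of like GC content the list's median was 0.46, and relative to the surrounding 5 Mb it was 0.36. Of 6 eligible H3K4 methyltransferases and partners, 0 gained and 0 lost, with a median of −0.17 (0.42 on bases without scaling), and SETD1B had the highest value at 0.84. KMT2D covered 3368 bases in NC and 3998 in KMT2D-KD. Of 3 eligible genes in the demethylase list, 1 lost and 0 gained, and all 3 log2 values were below 0. The losing one was RCOR1, the CoREST scaffold of KDM1A, from 3688 to 1178 bases (log2 value −1.88). KDM1A itself covered 2606 and 3778 bases, a log2 value of −0.08.

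Signalling genes gave mixed pictures. In the NF-kB list 3 of 14 eligible members gained and 0 lost, with a median of 0.34. These were TNFRSF1B, a TNF receptor (483 to 5010 bases), NFKBIA, the inhibitor IkB alpha (630 to 3988), and the kinase IKBKB (601 to 2491). REL was lowest at −0.83. The Wnt feedback list had a median of −0.32, with 0 of 13 gaining and 1 losing, and on bases without scaling its median was 0.23. The losing member was RNF43, a ubiquitin ligase that removes frizzled receptors (2220 to 596 bases), and the highest was its homologue ZNRF3 at 0.80. RNF43 is also one of 7 eligible genes in the list of pancreatic cancer drivers, in which 0 gained and the median was −0.14 (0.41 on bases without scaling). In the TGF-beta list SMAD2, a receptor-activated transducer, was the 1 gaining member of 14 (1748 to 8430 bases). NOTCH2 was the 1 losing member of 7 in the Notch list (1801 to 664 bases).

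Of 20 eligible forkhead, SOX and GATA factor genes 2 gained and 1 lost, and the median was 0.36. FOXN1, the thymic epithelial factor, went from 607 to 7771 bases and FOXN3 from 2404 to 388. Among AP-1 factors JUND was the 1 gaining member of 8 (509 to 5282 bases), and the list's median was 0.01. Nuclear receptors had a median of 0.28 with 2 of 22 gaining and 0 losing, led by NR2F6 (517 to 2701 bases). Of 75 eligible numbered zinc finger genes, 12 gained (16.0%) and 3 lost, with ZNF521 highest and ZNF131, on the chromosome 5 stretch, lowest at −1.32. HOX genes, KLF and SP factors and epithelial factors had no called member.

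Metabolic genes were called in both directions. Glycolysis and glucose transport had 4 of 18 gaining (22.2%) and 1 losing, with a median of 0.36. TPI1, triosephosphate isomerase, went from 883 to 3919 bases and LDHA from 2298 to 8046, while LDHB lost share. Cholesterol synthesis had 3 of 14 gaining (21.4%) and 1 losing, with a median of 0.09. FDPS, farnesyl diphosphate synthase, went from 0 to 2597 bases and DHCR7, a late enzyme of the pathway, from 467 to 4642, against HMGCS1 with the loss given above. In fatty acid metabolism ACSL3, a long-chain acyl-CoA synthetase, went from 933 to 11298 bases and FADS1, a desaturase, from 321 to 3298, the 2 gaining members of 16. The losing members of the hypoxia list were KDM3A, an H3K9 demethylase (1686 to 677), and PLOD2, a collagen lysyl hydroxylase (2371 to 1165), with 0 of 15 gaining.

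Housekeeping lists differed among themselves. Cytosolic ribosomal protein genes had 5 of 29 gaining (17.2%) and 0 losing, with RPL28 at 0 and 2597 bases, and a median of 0.22. Mitochondrial ribosomal protein genes had 2 of 22 gaining and a median of −0.00. DNA repair genes had 2 of 13 gaining and a median of 0.55, led by FANCD2 (280 to 2907 bases) and PARP2 (274 to 2696). That median was −0.12 relative to the surrounding 5 Mb. Cell cycle genes had 2 of 16 gaining, E2F2 (550 to 3030) and RB1 (328 to 3896).

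Some lists were dominated by shared windows. The histone list had 6 of 14 eligible members losing, but all 6 lie on 1 stretch of chromosome 1 with the same 1860 bases in NC and 991 in KMT2D-KD, and they include near-identical copies such as H3C14 and H3C15. Reads that fit several copies make this value uncertain. Of 19 eligible olfactory receptor genes 4 lost and 1 gained, and the 4 came from 2 merged stretches. Keratins had a median of −0.27, with 19 of 25 eligible members, on 9 merged stretches, below 0 and 1 losing, KRT37 (3457 to 2227 bases). On bases without scaling the medians of the histone, olfactory receptor and keratin lists were 0.74, 0.34 and 0.31. Of 39 eligible protocadherins 1 lost and 0 gained, and 0 of 18 collagens and 0 of 27 laminins and integrins were called.

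**Figure D5:**
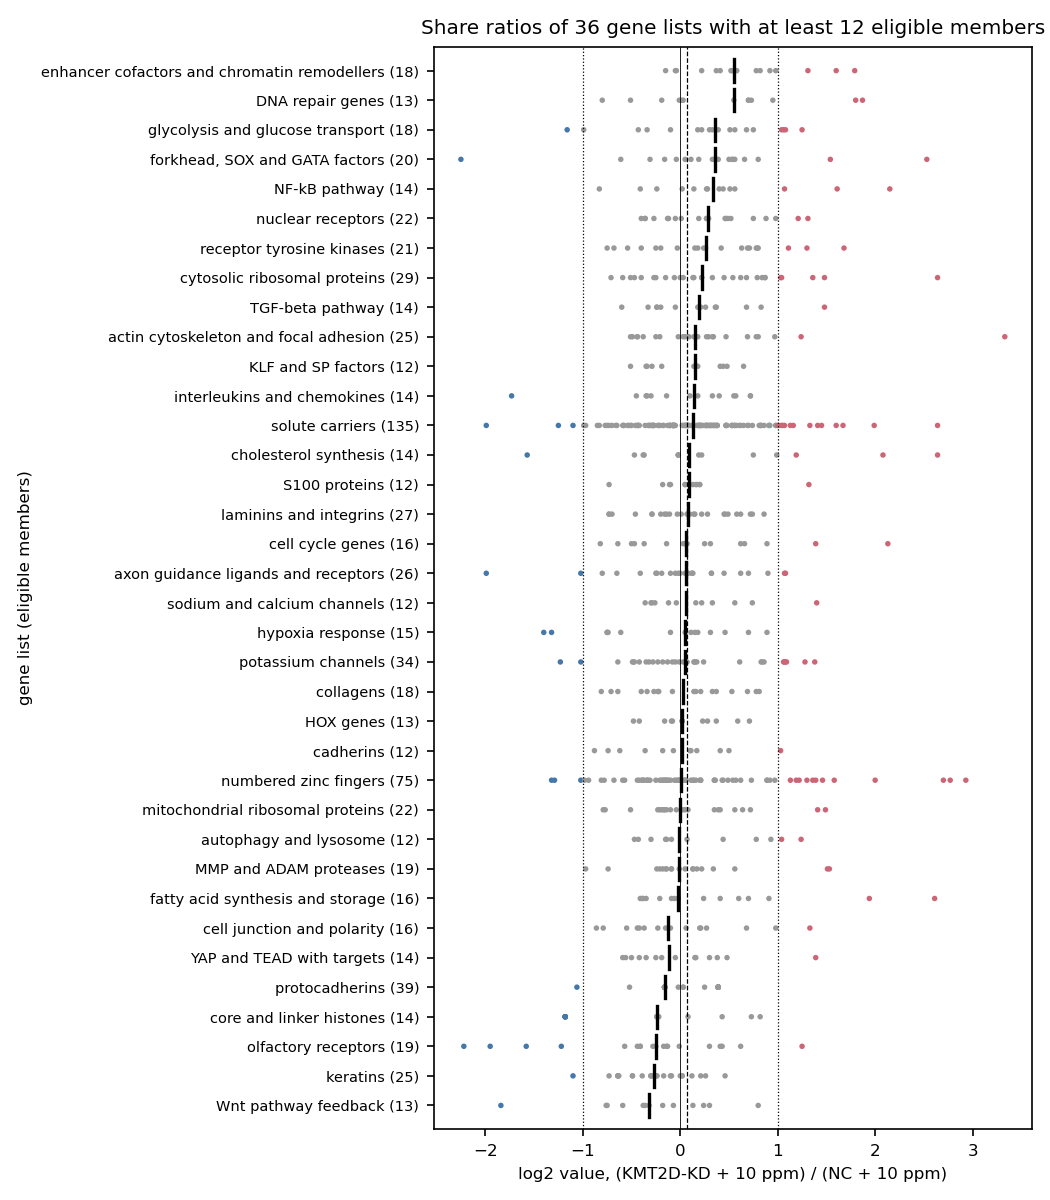
Log2 value of each eligible member (points) and the median (black bar) of 36 gene lists with at least 12 eligible members, ordered by median, with gaining members in red and losing members in blue. The dashed line marks the median of all eligible loci, 0.07, and list medians run from −0.32 for Wnt feedback (0.23 without scaling) to 0.55 for enhancer cofactors and chromatin remodellers.

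KLLN, EBF2, KMT2D and KDM1A, at the centre of the study, and the candidates the study screened beside EBF2 were given in all, whatever their value. KLLN, a p53-regulated nuclear protein, covered 4993 bases in 11 intervals in NC and 7987 bases in 11 intervals in KMT2D-KD, and its share was 155 and 161 ppm, a log2 value of 0.05. TGFBR3, the betaglycan co-receptor, covered 39609 and 51503 bases with a log2 value of −0.24. CCN1 (CYR61), a matricellular protein induced by YAP, went from 848 bases in 3 intervals to 4245 bases in 7, a log2 value of 1.39, and the interval on its interval share ratio, −1.42 to 3.30, crossed 0. All CCN1 bases lay in the flanks in both lists. TSR1, a ribosome biogenesis factor, covered 987 and 1927 bases. The other 4 held at most 2 intervals in either list, besides KMT2D and KDM1A given above. METAP2 covered 303 and 380 bases, TSPYL2 304 and 476, CIRBP 0 and 217 and EBF2 188 and 0. Of the 10 genes, 5 were eligible, 1 gained and 0 lost.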

How the data were processed

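H3K4me1, KMT2D and EBF2 ChIP-seq of SW1990 NC and KMT2D-KD cells and 1 input gave 7 libraries, and the 2 H3K4me1 interval lists were used. Per the labels (submitters' processing notes), BWA, MACS2, HOMER and hg38 were used, with versions, settings and the placement of multi-mapped reads not given in the sources used here. For each interval the authors' peak caller gave a fold enrichment over background and −log10 p-values and q-values in the deposited lists, called per library. Read totals are not in the lists, so library depth is unknown. The lowest background that fold enrichment and p-value imply was divided by the narrowest interval's width as a rough guide.

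Covered bases within the gene body and 20 kb either side were counted for GENCODE release 44 protein-coding genes, divided by the list's covered bases and given as log2 with a pseudocount of 10 ppm, for loci of at least 50 ppm in one list. Shares of intervals carry exact 95% (Clopper-Pearson) intervals, and a count of 0 was set to 3 intervals for a bound. Loci were named as the 10 at each end of the log2 value and of the ppm difference, the highest or lowest members of gene lists, and the genes of the study. Other genes, the 5 Mb regions and the 7SL words were chosen after their values were seen. The members and lists were chosen with earlier results of these data known. Some items are not reported here. Alternatives changed the flank, pseudocount, minimum, interval threshold, measure, denominator and intervals used. Scripts were tested on simulated data and run with Python 3.11.15, pandas 2.3.3, NumPy 2.4.6, SciPy 1.17.1 and pysam 0.24.0.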

Additional observations from a re-analysis of the deposited data

Results flagged for a closer look

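Intervals of the other targets, which entered no comparison above, fell in a few called loci. In the KMT2D-KD cells 6 of the 593 gaining loci (1.01%) held a KMT2D interval and 7 (1.18%) an EBF2 interval, while 2 of the 171 losing loci (1.17%) held an EBF2 interval. Over all 6316 eligible loci the shares were 1.16% and 1.28%. In NC the same counts were 5 (0.843%), 4 (0.675%) and 1 (0.585%). Over all eligible loci the NC shares were 0.792% for KMT2D and 0.918% for EBF2. These lists were short, with 238 and 318 KMT2D intervals and 293 and 311 EBF2 intervals in NC and KMT2D-KD, and the differences were not tested.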

How the results depend on the processing

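The number of called loci depended on the settings. Gaining and losing loci, 593 and 171 as reported, numbered 251 and 112 over gene bodies only, 92 and 30 with a pseudocount of 50 ppm, 1575 and 426 with a minimum of 20 ppm, 166 and 63 with a minimum of 100 ppm and 2386 and 604 with no minimum. With intervals of −log10 q of at least 5 they numbered 1617 and 692, and with no denominator 2713 and 45. Gaining loci alone moved to 358 with flanks of 5 kb, to 1072 with flanks of 50 kb and to 320 relative to the surrounding 5 Mb. In the other 21 comparisons of counts the count stayed within 1.5 times, but not the loci: with the own chromosome as denominator 302 gaining and 67 losing loci were shared with those reported, and by number of intervals 342 and 79. Relative to loci of like GC content 403 of the gaining and 120 of the losing loci kept their call, and relative to the surrounding 5 Mb 283 and 80. The 7SL, GC and 5 Mb alternatives were chosen after seeing the data. CLEC19A turned to 0.48 over its gene body, GPR158 to 1.55 with −log10 q of at least 5 and TTC33 to 0.04 relative to its surrounding 5 Mb, and the cause was not tested. Among the 10 highest and 10 lowest loci, DNAJB6 and PPFIBP2 kept their call in all 19 alternatives, while PCNX3 kept it in 11 and FIGN in 12. With 100-base windows 12 motif shares moved, as shorter windows hold fewer matches. Of list medians 1139 values stayed within the spread and 155 moved. No paired analysis was possible because each group holds 1 library, so spread between replicates could not be measured and library depth limits which weak intervals appear in each list.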
